A study of Mus musculus with 58 samples.

Results

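The 10 genes described here encode heat shock proteins and their partners: Hspa1a, Hspa1b, Hspa8, Hsph1, Hsp90aa1, Dnajb1, Bag3, Hspb1, Hspd1 and Hspe1. They were taken by gene symbol, with 1 transcript row each in the deposited tables, and are 10 of the 24122 genes counted. RNA was sequenced from liver and kidney of male B6C3F1/J mice, obtained at 5 to 6 weeks of age, that received a single dose by gavage of trichloroethylene (TCE), tetrachloroethylene (PCE) or vehicle. Both are chlorinated solvents, and PCE carries chlorine at the position where TCE carries hydrogen. The 58 libraries form 20 groups: each tissue and chemical has its own vehicle group, given 5 mL/kg of saline with the surfactant Alkamuls at 5%, and doses of about 0.22, 0.67, 2 and 6 mmol/kg. These correspond to 24, 80, 240 and 800 mg/kg of TCE and 30, 100, 300 and 1000 mg/kg of PCE. Each group has 3 libraries, except for 2 in the PCE vehicle group of kidney and 2 in the 0.67 mmol/kg PCE group of liver. No untreated mice without gavage were analysed here, so all groups share the handling and the surfactant, and a second label names the strain as C57BL/6.

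Heat shock proteins are chaperones, which bind unfolded or newly made proteins and help them to fold. Heat, toxic metals, oxidants and damaged proteins free the transcription factor HSF1 from chaperones, and HSF1 then binds heat shock elements, alternating GAA and TTC units in the DNA, and raises transcription of stress-inducible members within minutes. In unstressed liver and kidney the constitutive members carry most of the chaperone load, whereas the inducible Hsp70 genes are low and can rise sharply with body temperature or tissue stress.

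A kidney library held 23247565 to 32420329 counts, and a liver library 30932385 to 125880542. Liver vehicle and 6 mmol/kg libraries were sequenced more deeply by design, at 88048143 to 125880542 counts, than the other liver libraries at 30932385 to 65112568. Depth and dose therefore cannot be told apart where lower liver doses are set against vehicle, and depth also differs between dose ranks in the liver trends. Levels are given as CPM, counts scaled to library size, after TMM scaling over all 58 libraries, and fold changes are log2 values from edgeR's quasi-likelihood test with Benjamini-Hochberg adjustment over all genes of the fit. A gene was called at an adjusted p under 0.05. Summed hepatocyte markers were at 107627 to 207058 CPM in liver and 153 to 400 CPM in kidney, and proximal tubule markers at 36997 to 56413 CPM in kidney and 0.972 to 14 CPM in liver, which follows the tissue labels. The kidney library of 0.67 mmol/kg TCE replicate 3 held adrenal markers at 3431 CPM against at most 11.4 CPM in the other kidney libraries, and no member was called in that comparison with or without it. A tissue sample holds many cell types, so fewer cells of a type and less RNA per cell cannot be told apart.

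The DNA upstream of the paired Hsp70 genes Hspa1a and Hspa1b is shown because these genes had the widest swings between libraries and because their reads are hard to tell apart. They are the classical stress-inducible Hsp70 genes and lie close together on chromosome 17 of GRCm38.p6, Hspa1a at chr17:34969359-34972156 and Hspa1b at chr17:34956429-34959238, both on the minus strand. The 250 bases before each RefSeq start follow, 5′ to 3′ on the gene's strand, chr17:34972157-34972406 for Hspa1a and chr17:34959239-34959488 for Hspa1b, with the matched heat shock element letters in capitals.
Hspa1a: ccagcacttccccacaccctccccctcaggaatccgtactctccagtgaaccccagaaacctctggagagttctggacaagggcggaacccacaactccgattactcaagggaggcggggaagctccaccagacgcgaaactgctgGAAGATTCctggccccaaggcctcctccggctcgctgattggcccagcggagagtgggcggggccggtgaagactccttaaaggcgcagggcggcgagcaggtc
Hspa1b: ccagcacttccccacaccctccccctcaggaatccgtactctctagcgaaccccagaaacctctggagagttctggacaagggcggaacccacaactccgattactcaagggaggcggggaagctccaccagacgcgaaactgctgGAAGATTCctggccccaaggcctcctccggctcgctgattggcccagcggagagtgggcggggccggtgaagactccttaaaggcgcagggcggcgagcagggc
Both windows hold 1 match to the inverted pair GAANNTTC, which starts at position −104 counted from the RefSeq start, and 247 of the 250 positions are equal.

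Such paired units are common, so a match describes the DNA and says nothing on binding. Of 32851 RefSeq promoter windows, each from 250 bases before to 50 after a start, 7.86% held GAANNTTC, 8.52% held TTCNNGAA and 15.06% held either, both letter patterns being their own reverse complement. Runs of 3 alternating units, which overlap both patterns, were in 0.6% of windows. Such a run stood in the windows of Hspe1, Hsph1 and 1 of the 2 windows of Hspd1, while Hspb1 held the inverted pair at 2 places and Bag3 at 1. The windows of Hspe1 and Hspd1 overlap on opposite strands and share the same run. The sites of 4 genes are shown because they hold the matched letters, with the matched letters in capitals, at chr1:55088053-55088082, chr5:149636287-149636308 (minus strand), chr5:135887801-135887830 and chr7:128523614-128523632.
Hspe1: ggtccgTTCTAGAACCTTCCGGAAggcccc
Hsph1: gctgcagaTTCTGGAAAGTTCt
Hspb1: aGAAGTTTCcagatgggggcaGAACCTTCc
Bag3: ggatgggaccaGAAGTTTC
The sites shown for Hsph1 and Bag3 lie after the start, and those of Hspe1 and Hspb1 before it. Hsph1 also holds a TTCNNGAA match before the start, at −33, or −54 in the window of its second start, which is not shown. Neither of the 2 Dnajb1 windows held a match, which says only that these letters are not in them.

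The inducible Hsp70 genes varied more between libraries than nearly all other genes. Hspa1b ran from 10.7 to 585 CPM over the 29 liver libraries, with a median of 84.7, and from 7.03 to 329 CPM over the 29 kidney libraries, with a median of 70.6. Hspa1a ran from 3.37 to 201 CPM in liver and from 7.03 to 240 CPM in kidney. The highest liver library was PCE vehicle replicate 3 and the lowest PCE 6 mmol/kg replicate 1, the library number that was also lowest in kidney. The SD of log2 Hspa1b was 1.31 in each tissue, and 0.284% of 7735 liver genes and 0.188% of 7998 kidney genes with a mean of at least 5 CPM had a larger one. Most of that spread lay within groups: the 10 groups of a tissue accounted for 35.3% of the Hspa1b variance in liver and 24% in kidney, against a median of 44.5% and 45.2% over all genes.

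**Figure D1:**
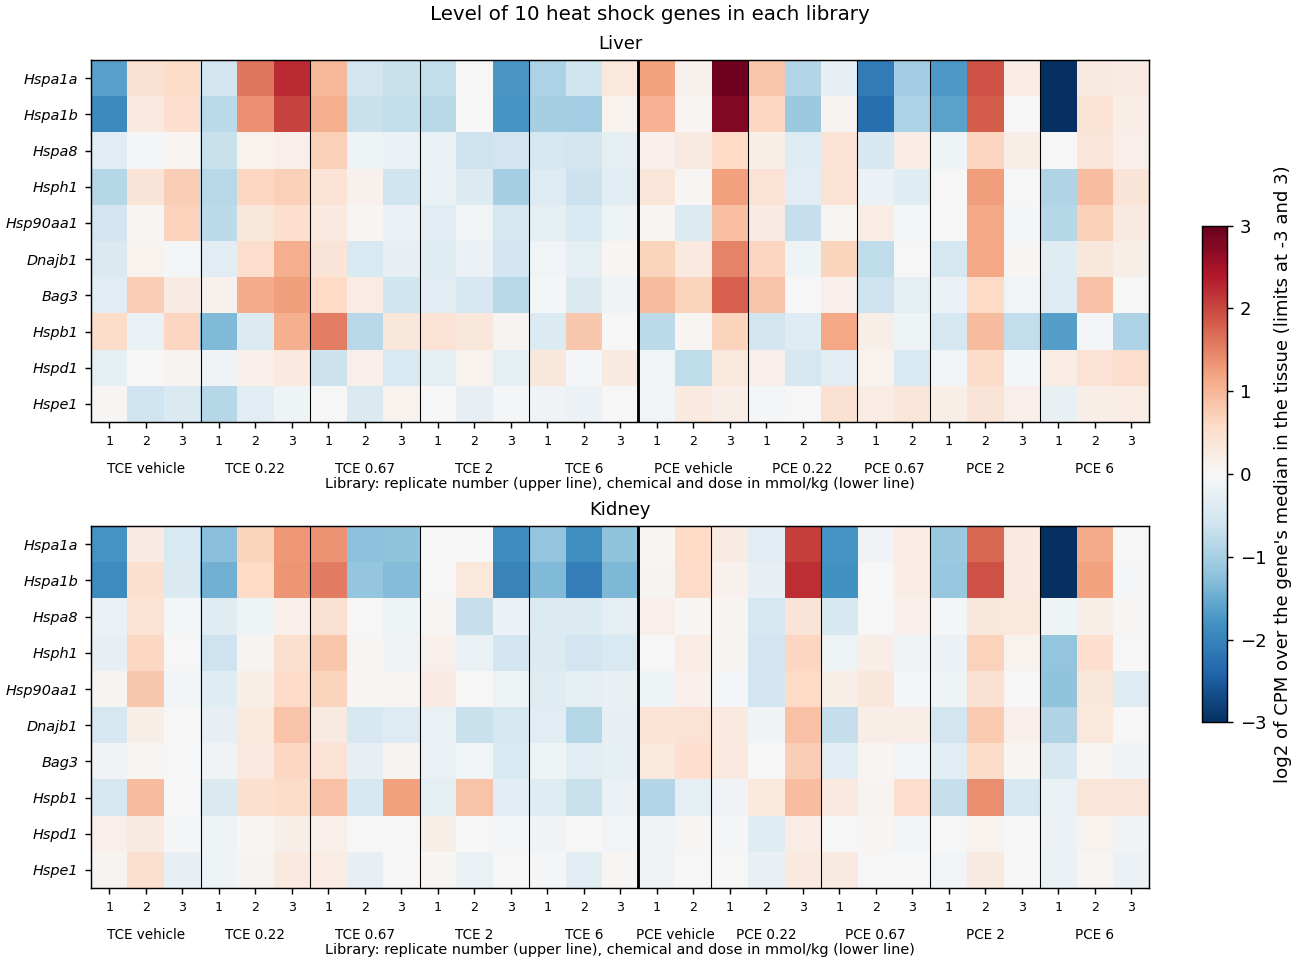
Heat map of the 10 genes (rows) in each library (columns, grouped by chemical and dose in mmol/kg with the replicate number), liver above and kidney below. Colour gives the log2 ratio of a gene's CPM to its median in that tissue; the strongest reds and blues of Hspa1a and Hspa1b stand in single libraries, such as PCE vehicle replicate 3 (high) and PCE 6 mmol/kg replicate 1 (low) in liver.

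The other 8 members spread less. Hsph1, the Hsp110 nucleotide exchange factor of Hsp70, had an SD of log2 CPM of 0.62 in liver and 0.46 in kidney. Bag3, a co-chaperone that links Hsp70 to autophagy, had 0.64 and 0.32, and Dnajb1, the Hsp40 partner that hands clients to Hsp70, 0.55 and 0.49. Hsp90aa1, the inducible cytosolic Hsp90, had 0.49 and 0.41, and the constitutive Hsp70 gene Hspa8 0.39 and 0.30. The mitochondrial chaperonin pair Hspd1 (Hsp60) and Hspe1 (Hsp10) had 0.34 and 0.30 in liver and 0.13 and 0.19 in kidney, near the medians over all genes of 0.27 and 0.14. The small heat shock protein gene Hspb1 (Hsp27) had 0.76 and 0.59, the widest of these 8 in each tissue.

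In vehicle libraries Hspa8 was the most abundant member per transcript length in both tissues. Its level was 1294 ± 285 CPM per kilobase (SD, n = 6) in liver and 1781 ± 303 (n = 5) in kidney. Hspe1 followed in liver with 298 ± 70.5 CPM per kilobase, Hspd1 with 253 ± 59.9 and Hsp90aa1 with 136 ± 55.4. Mean ± SD overlapped between Hspe1 and Hspd1, and their order was the other way round in kidney, where Hspd1 was at 335 ± 36.4 and Hspe1 at 293 ± 58.1 and they overlapped again. Hsp90aa1 was next in kidney at 196 ± 57.6 CPM per kilobase. In liver Hspb1 (71.4 ± 25.1), Hspa1b (65.1 ± 72.5), Bag3 (47.4 ± 24.8), Hsph1 (44.8 ± 19.8), Dnajb1 (21.9 ± 11.7) and Hspa1a (21.1 ± 23.6) followed, and mean ± SD overlapped between neighbours in this order. In kidney Hsph1 (58.1 ± 13.8) stood apart from the 5 lowest, Hspa1b (25 ± 12.6), Dnajb1 (21.2 ± 5.14), Hspa1a (18.2 ± 9), Bag3 (18 ± 3.17) and Hspb1 (10.5 ± 5.77), whose neighbours overlapped.

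Between tissues, 4 of the 10 members differed in vehicle libraries, where edgeR called 72.9% of the 14949 genes tested and DESeq2 also called 4 members. Hspb1 was lower in kidney, with 6.63, 18.3 and 9.44 CPM in the TCE vehicle group and 5.11 and 7.71 in the PCE vehicle group. In liver the vehicle values of Hspb1 were 31.5, 68.2 and 86.1 CPM (lowest, median and highest of 6), so the tissues did not overlap. The difference, kidney minus liver, was −2.90 ± 0.49 (SE, adjusted p = 1.02e-06). Bag3 was also lower in kidney, at 38.2 to 58 CPM against 54.6 to 239 CPM in liver, with a difference of −1.29 ± 0.24 (adjusted p = 7.95e-06). Here 1 liver library, TCE vehicle replicate 1, lay within the kidney range.

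Hspa8 and Hspd1 were higher in kidney, by 0.48 ± 0.19 (adjusted p = 0.024) and 0.39 ± 0.15 (adjusted p = 0.0199). Hspa8 was at 3492, 4071 and 5421 CPM in kidney (lowest, median and highest of 5) and at 2252, 3020 and 4249 CPM in liver (of 6), which overlap. The Hspa8 call was lost without liver TCE vehicle replicate 1 (adjusted p = 0.0556), liver PCE vehicle replicate 1 (0.0554), kidney TCE vehicle replicate 2 (0.0975) or kidney PCE vehicle replicate 1 (0.077). Hspd1 was lost without liver TCE vehicle replicate 1 (adjusted p = 0.0554), liver PCE vehicle replicate 2 (0.0955), kidney TCE vehicle replicate 2 (0.0541) or kidney PCE vehicle replicate 2 (0.0812), so 1 library decides both. Hsp90aa1 did not pass, at 0.50 with a 95% interval of −0.07 to 1.07 (adjusted p = 0.11), and passed without liver TCE vehicle replicate 3 (0.69, adjusted p = 0.0342) or liver PCE vehicle replicate 3 (0.72, adjusted p = 0.0259). Hspa1a, Hspa1b, Hsph1, Dnajb1 and Hspe1 did not pass, with differences of −1.10 to 0.39. Of these 6 genes, Hsp90aa1, Hspa1a, Hsph1 and Dnajb1 passed when libraries were blocked on the running sample number. The interval of Hspe1, −0.31 to 0.25, was the narrowest of these, and that of Hspa1b, −2.62 to 0.43, the widest.

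The split of reads between Hspa1b and Hspa1a differed between the tissues. Hspa1b had 2.4 to 3.97 times the counts of Hspa1a in the 29 liver libraries and 1 to 1.53 times in the 29 kidney libraries, with no overlap. In vehicle libraries the ratio was 2.89 ± 0.167 (SD, n = 6) in liver and 1.28 ± 0.11 (n = 5) in kidney, and the exact two-sided permutation test gave p = 0.00433, the smallest these numbers allow. That test treats the libraries as independent, although the kidney libraries share running sample numbers with liver libraries, and a paired test was not run. Hspa1a counts behind the ratio ran from 171 to 15737 in liver and from 259 to 9661 in kidney. Of the 50-base words of the annotated transcripts, 58.8% of those of Hspa1a also occur in Hspa1b and 62.3% the other way. The sources used here do not say how reads matching both genes were assigned, so the level of each gene alone is uncertain.

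**Figure D2:**
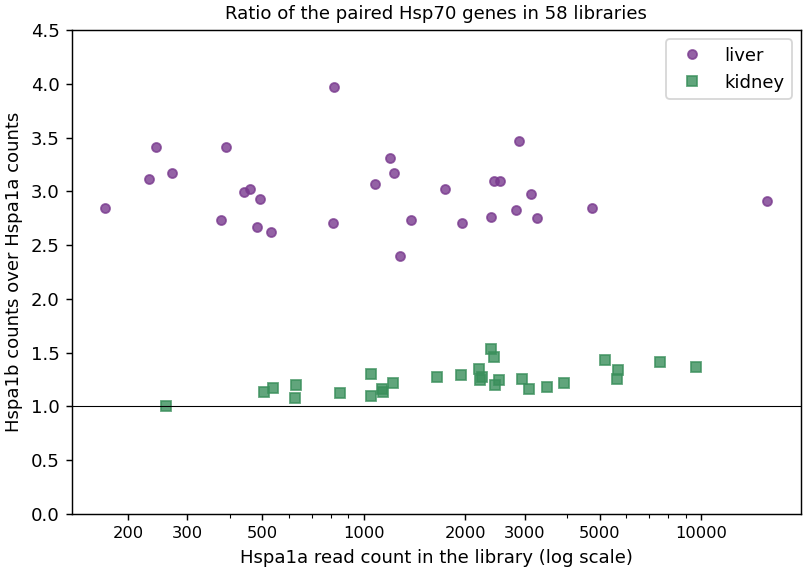
Hspa1b counts divided by Hspa1a counts (y axis) against the Hspa1a count (x axis, log scale), 1 point per library. The 29 liver points lie between 2.4 and 3.97 and the 29 kidney points between 1 and 1.53 over the whole range of counts.

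No member was called at 6 mmol/kg TCE in liver, where edgeR called 1.31% of 13174 genes, none had an unadjusted p under 0.05, and DESeq2 called 0. Hspa1b was at 42.3, 42 and 91 CPM after the dose and at 22.4, 104 and 121 CPM in vehicle. The dose values lay inside the vehicle range, and the estimate was −0.51 with a 95% interval of −2.39 to 1.37. Hsph1 was at 95.8, 80.4 and 99.1 CPM against 69.5, 164 and 207 CPM, an estimate of −0.69 (−1.68 to 0.31). Hspd1 was at 826, 630 and 780 CPM against 528, 652 and 689 CPM, an estimate of 0.26 (−0.29 to 0.82), with overlapping groups. Over the 10 members the changes ran from −0.69 to 0.26 with a median of −0.38, against a median of −0.04 over all genes.

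At 6 mmol/kg PCE in liver 0 of 10 members were called in edgeR, where 5.84% of genes were, and DESeq2 called 0. Hspa1a, Dnajb1 and Bag3 had an unadjusted p under 0.05 with negative estimates, as 3 of 10 members, near the 25.4% of all genes under that threshold. Hspa1a was at 3.37, 32.3 and 31.5 CPM against 61.4, 29.2 and 201 CPM in vehicle, an estimate of −2.12 (95% interval −4.03 to −0.20, adjusted p = 0.153). Hspa1b was at 10.7, 112 and 97.7 CPM against 175, 88.1 and 585 CPM, an estimate of −1.94 (−3.88 to 0.00). In both genes the dose and vehicle ranges overlapped, and the vehicle group held the highest library of the tissue. The liver vehicle group of PCE had higher estimates than that of TCE, by 1.78 for Hspa1b (−0.15 to 3.71). Between these vehicle groups edgeR called 0 members and 0% of genes, DESeq2 called 0 members, and Dnajb1, Hspe1 and Bag3 had an unadjusted p under 0.05, as did 10.0% of all genes. Between the kidney vehicle groups 0 members and 0% of genes were called, with 0 members in DESeq2 and none under an unadjusted p of 0.05.

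Bag3 had the lowest p of the 10 in that comparison. It was at 52, 125 and 68.5 CPM at 6 mmol/kg PCE in liver and at 132, 108 and 239 CPM in vehicle, an estimate of −0.95 ± 0.39 (adjusted p = 0.133). Replicate 2 at 125 CPM lay within the vehicle range, and without it the estimate was −1.42 with adjusted p = 0.0477. The liver vehicle group of PCE was itself above that of TCE in Bag3 by an estimate of 0.94 (0.13 to 1.75, adjusted p = 0.409), and the part of this gap in the PCE comparison was not tested. Dnajb1, at 36.4, 59.3 and 52.8 CPM against 74.3, 57.5 and 132 CPM, overlapped between the groups, with an estimate of −0.82 (−1.63 to 0.00, adjusted p = 0.194). Hspd1 had the highest estimate, at 758, 883 and 939 CPM against 616, 384 and 809 CPM, an estimate of 0.52 (−0.04 to 1.08, adjusted p = 0.224). Its partner Hspe1 was at 206, 275 and 283 CPM against 228, 297 and 277 CPM, an estimate of −0.05 (−0.43 to 0.33). The members' median was −0.55, against 0.00 over all genes.

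In kidney at 6 mmol/kg TCE all 10 estimates were negative and 0 members were called, with 0.176% of 14216 genes called, none of the 10 under an unadjusted p of 0.05 and 0 in DESeq2. Hsph1 was at 149, 134 and 144 CPM against 167, 305 and 200 CPM in vehicle, an estimate of −0.65 (−1.44 to 0.14). Hsp90aa1 was at 433, 464 and 480 CPM against 589, 973 and 528 CPM, an estimate of −0.60 (−1.28 to 0.09), and Hspa8 at 3018, 3002 and 3318 CPM against 3492, 5421 and 3922 CPM, an estimate of −0.46 (−0.91 to 0.00). In these 3 genes and in Bag3, at 37.4, 32.8 and 33.8 CPM against 38.2, 42.5 and 41 CPM, every dose library lay below every vehicle library. None of them was under an unadjusted p of 0.05, as 10.1% of all genes were. The share of all genes separated in this way was not computed, so the count shows nothing particular to the members. The adjusted p of Hsph1, Hsp90aa1, Hspa8 and Bag3 was 0.598, 0.572, 0.497 and 0.809, and the other 6 genes overlapped. Hspa1b, at 28.4, 17 and 27.6 CPM against 19.1, 98.4 and 52.3 CPM, overlapped. The members' median was −0.53, against 0.01 over all genes.

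In kidney at 6 mmol/kg PCE 0 members were called in edgeR and in DESeq2, with 3.83% of genes called in edgeR. Bag3 alone had an unadjusted p under 0.05, as did 16.4% of all genes, at 29.2, 42.4 and 37.9 CPM against 50.8 and 58 CPM, an estimate of −0.56 (−1.06 to −0.07, adjusted p = 0.23), with every dose library below both vehicle libraries. Hspa1b was at 7.03, 163 and 68.2 CPM against 75.3 and 105 CPM, an estimate of −0.17 with an interval of −2.60 to 2.25. Its dose libraries lay on both sides of the vehicle range, and the interval allows an estimate of more than 4-fold either way. Hspd1 was narrow, at 689, 833 and 717 CPM against 721 and 792 CPM, an estimate of −0.01 (−0.26 to 0.25).

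**Figure D3:**
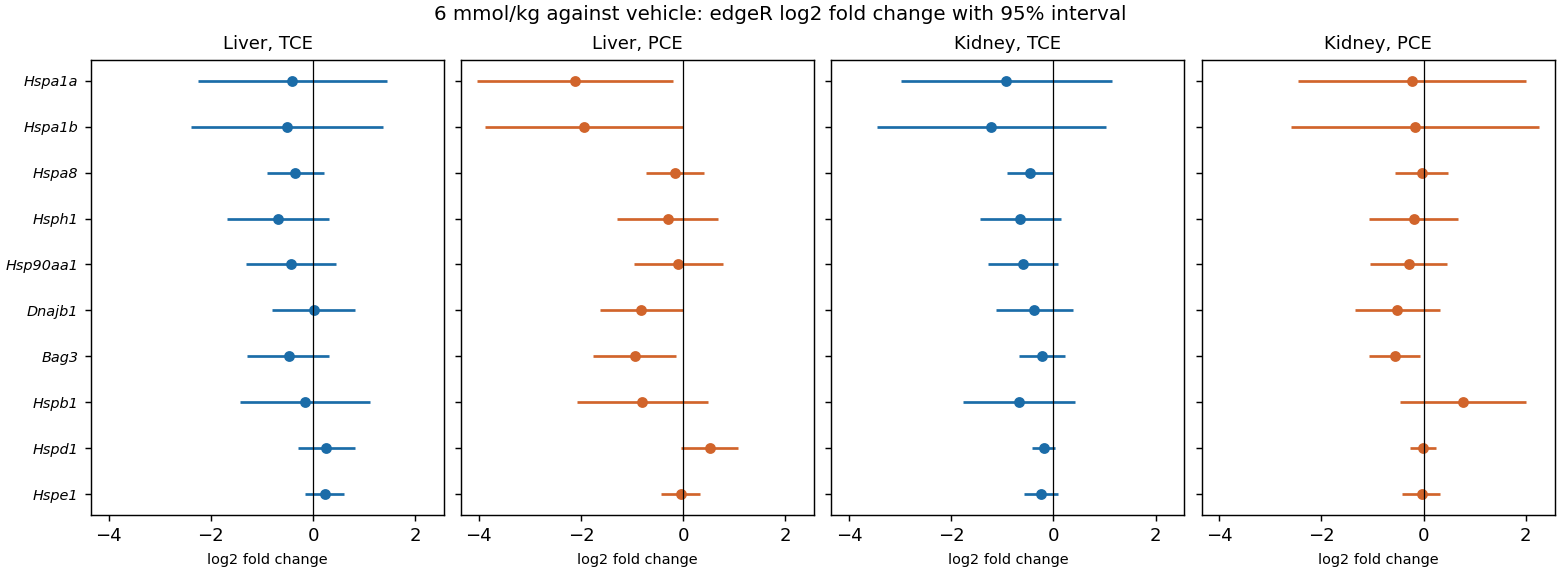
Log2 fold change (x axis) of each gene at 6 mmol/kg against its vehicle group in 4 panels by tissue and chemical; points are edgeR estimates and lines 95% intervals. Intervals of Hspa1a and Hspa1b are the widest in each panel, and those of Hspd1 and Hspe1 among the narrowest.

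At the lower doses no member was called in edgeR in any of the 12 comparisons with vehicle. Few genes passed there at all: 0%, 0.00759% and 0.00759% at 0.22, 0.67 and 2 mmol/kg TCE in liver, 0.00759%, 0.00759% and 0.182% at the same PCE doses, 0%, 0.00703% and 0% with TCE in kidney and 0%, 0% and 0.0141% with PCE. Bag3 had an unadjusted p under 0.05 at 2 mmol/kg TCE and at 0.22, 0.67 and 2 mmol/kg PCE in liver and at 0.67 mmol/kg PCE in kidney. In that order 9.59%, 4.4%, 7.57%, 11.6% and 8.25% of all genes were under it. In liver Bag3 was at 124, 67.6 and 76.6 CPM at 0.22, 44.4 and 55.7 at 0.67 and 60.6, 103 and 64.3 at 2 mmol/kg PCE, against 132, 108 and 239 CPM in the shared vehicle group. The 0.67 and 2 mmol/kg libraries all lay below the 3 vehicle libraries. The share of all genes separated in this way was not computed, and results that share a vehicle group are not separate observations. DESeq2 called Bag3 at 0.67 mmol/kg PCE, an estimate of −1.67 with adjusted p = 0.0412, and no other member at these doses.

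Hspa1a, Hspa1b and Dnajb1 also had an unadjusted p under 0.05 at 0.67 mmol/kg PCE in liver, where 7.57% of all genes did. Hspa1b was at 17.6 and 43.8 CPM there, below the vehicle range of 88.1 to 585 CPM. Toward the other side, Hspa1b was at 48.3, 219 and 345 CPM at 0.22 mmol/kg TCE in liver and at 77.8, 59.1 and 329 CPM at 0.22 mmol/kg PCE in kidney, where both groups overlapped their vehicle groups. Over all members and the 3 lower doses, changes ran from −0.81 to 1.44 for TCE and −3.38 to 0.30 for PCE in liver, and from −0.37 to 1.02 and −0.69 to 1.01 in kidney.

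**Figure D4:**
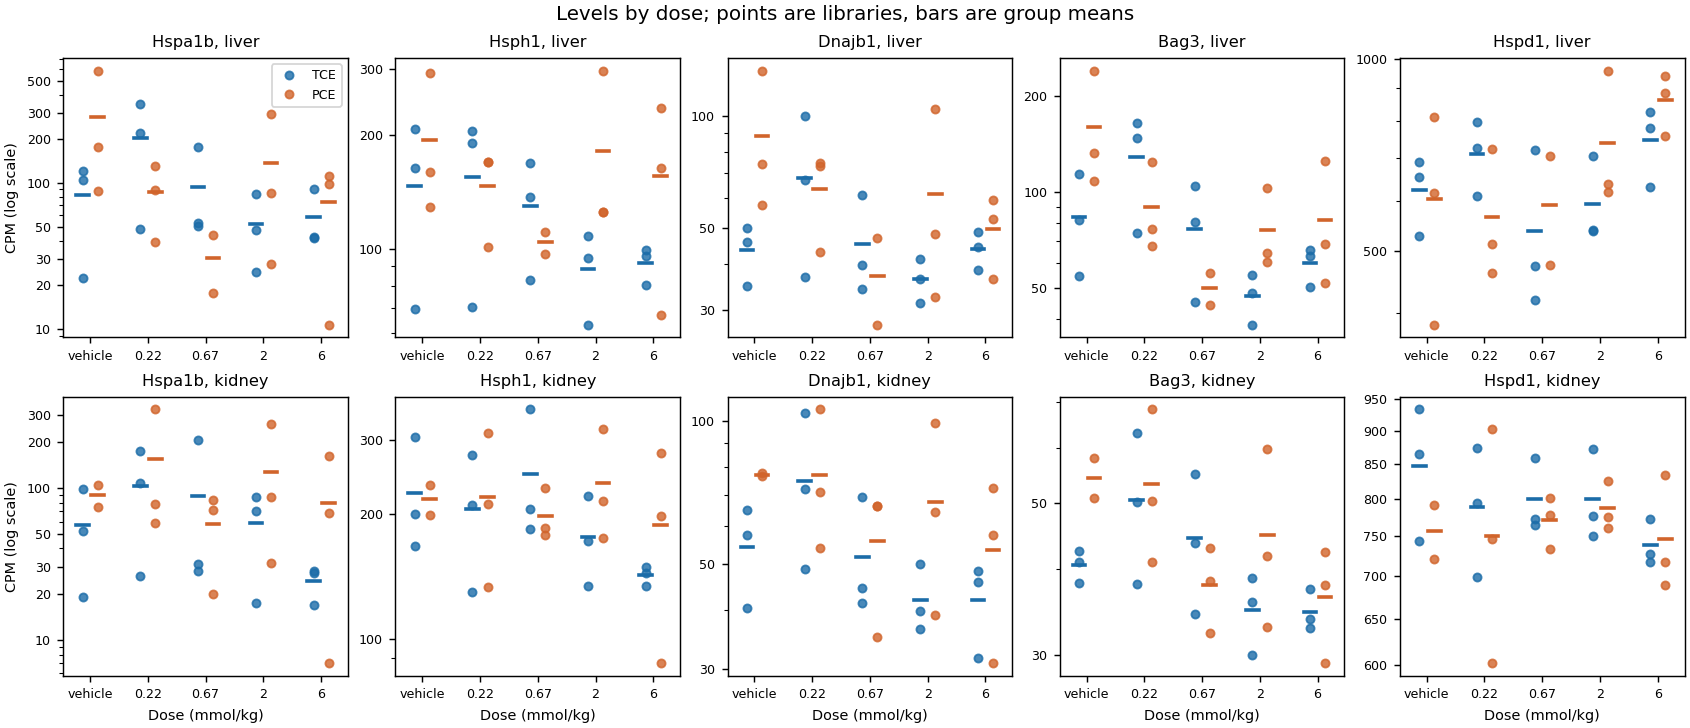
CPM (y axis, log scale) of Hspa1b, Hsph1, Dnajb1, Bag3 and Hspd1 by dose (x axis) in liver, above, and kidney, below; points are libraries, bars group means, colours the chemical. Hspa1b libraries of 1 dose lie far apart, such as 10.7 to 112 CPM in liver at 6 mmol/kg PCE, and the 3 liver libraries of Hspd1 at 6 mmol/kg PCE, 758 to 939 CPM, overlap the vehicle libraries at 384 to 809 CPM.

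The trend on the rank of the dose, from 0 to 4, called no member in edgeR or DESeq2. It called 0.864% of genes for TCE and 12.6% for PCE in liver, and 0.0523% and 3.48% in kidney. The liver slope of Bag3 was −0.26 ± 0.10 per rank for TCE, where the adjusted p was 0.235, and −0.22 ± 0.10 for PCE, where it was 0.132, both under an unadjusted p of 0.05. Hsph1 with TCE, at −0.22 (−0.42 to −0.03), and Hspd1 with PCE, at 0.14 (0.01 to 0.27), were also under it. That is 2 of 10 members in each liver trend, against 14.2% of all genes for TCE and 30.0% for PCE, so neither count stands out. Without PCE vehicle replicate 3 the trend of Hspd1 was 0.20 with adjusted p = 0.0289, and without replicate 2 of 6 mmol/kg PCE that of Bag3 was −0.32 with adjusted p = 0.0472. In kidney Hspa8, Hsp90aa1, Dnajb1 and Bag3 with TCE, and Bag3 with PCE, had an unadjusted p under 0.05, at −0.16 to −0.10 per rank. The shares of all genes were 9.18% for TCE and 18.2% for PCE. With TCE that is 4 of 10 members, above the share of all genes, and all 10 slopes were negative. These 4 genes correlated with each other at 0.57 to 0.90 over the kidney libraries, so they are not separate observations.

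PCE and TCE responses were set against each other at the 4 molar doses of each tissue, 8 differences in all, with p-values adjusted over all genes of the fit. No member differed in edgeR or DESeq2. Calls among all genes were 0%, 0.0228%, 0% and 0% in liver from the lowest to the highest dose, and 0%, 0%, 0% and 0.0211% in kidney. At 0.22 and 0.67 mmol/kg in liver Hspa1a, Hspa1b, Dnajb1 and Bag3 had an unadjusted p under 0.05, as did 4.79% and 6.59% of all genes, while in kidney no member did. The dosed groups were also compared directly, without vehicle. In liver only Hspe1 was then under 0.05 at 0.22 mmol/kg, and no member at 0.67 mmol/kg, against 22.7% and 6.22% of all genes. Hspa8 and Hsph1 were under it at 2 mmol/kg and Hspa8 at 6 mmol/kg, against 9.01% and 10.4%. In kidney Hspa8 was under it at 2 mmol/kg, against 10.6%, and no member was at the other doses. The lowest edgeR adjusted p of a member in these comparisons was 0.153 in liver and 0.473 in kidney. Hspa1a, Hspa1b, Dnajb1 and Bag3 were also higher in the PCE than in the TCE vehicle group of liver, by estimates of 0.94 to 1.79. The part of that gap in the differences was not tested. At 6 mmol/kg the difference, PCE minus TCE, was −1.43 for Hspa1b in liver (95% interval −4.09 to 1.24) and 1.04 in kidney (−2.28 to 4.36). For Hspd1 it was 0.26 (−0.53 to 1.04) and 0.19 (−0.16 to 0.53), and for Hspa8 0.19 (−0.61 to 0.99) and 0.42 (−0.27 to 1.10). The Hspa1b intervals include differences of more than 4-fold.

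The kidney response at 6 mmol/kg was also set against the liver response. With TCE 0 members and 0.328% of 14949 genes differed, and with PCE 0 members and 0.709%, with no member under an unadjusted p of 0.05 and 0 in DESeq2 for either. The difference, kidney minus liver, was −0.53 for Hspd1 with PCE (−1.14 to 0.07) and 1.89 for Hspa1a (−0.99 to 4.76). With TCE it ran from −0.72 for Hspa1b to 0.25 for Bag3.

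Across libraries 7 members varied together: Hspa1a, Hspa1b, Hspa8, Hsph1, Hsp90aa1, Dnajb1 and Bag3, grouped after their values were seen. Over the 29 libraries of a tissue, Pearson correlations of log2(CPM + 0.5) among their 21 pairs ran from 0.61 to 0.99 in liver and 0.57 to 1.00 in kidney, with medians of 0.80 and 0.76. The highest value in each tissue is the pair Hspa1a and Hspa1b, which share sequence. Without that pair the highest was 0.92 in liver and 0.91 in kidney. Hspb1, Hspd1 and Hspe1 had values of −0.21 to 0.50 with any member in liver. In kidney their range was 0.28 to 0.86, with Hspd1 and Hsp90aa1 at 0.86 and Hspd1 and Hspe1 at 0.72, against −0.12 for the latter pair in liver. The 2 chaperonin genes lie head to head on chromosome 1, at chr1:55077833-55088243 for Hspd1 and chr1:55088148-55091317 for Hspe1, and their annotated ends overlap, so some reads there may fit both. The libraries also differ in dose, so these values are descriptions.

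The genes most like Hsph1 outside the 10 were mainly other chaperones. In liver they were the constitutive Hsp90 gene Hsp90ab1 (r = 0.88, n = 29), the Hsp90 co-chaperone gene Chordc1 (0.88), the calcium pump gene Atp2a2 (0.87), the Hsp110 family gene Hspa4l (0.82) and Ints2 (0.81), a subunit of the Integrator complex. In kidney they were Chordc1 (0.95), the collagen prolyl hydroxylase gene P4ha1 (0.94), Hsp90ab1 (0.92) and the Hsp40 genes Dnaja4 (0.92) and Dnaja1 (0.90). Chordc1 ran from 30.3 to 94.6 CPM in liver and from 27.7 to 81.1 CPM in kidney. At the other end Cirbp, a cold-inducible RNA-binding protein gene named after its values were seen, had r = −0.76 in liver and −0.86 in kidney, where it was the most negative of 7998 genes. It ran from 15 to 45.6 CPM in liver and from 14.9 to 53.8 CPM in kidney. Over the 16 cell type marker lists the summed level correlated with Hsph1 at −0.53 (lymphocyte) to 0.38 (erythroid) in liver and −0.26 to 0.31 in kidney. Library total correlated at 0.02 in liver and 0.17 in kidney. The slope of a library's levels on transcript length was at 0.34 and 0.14, and that on GC content at −0.11 and 0.03. The part of these values in the pattern was not tested.

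Liver and kidney libraries that carry the same running sample number had similar levels of the same 7 genes. The labels do not say that a number marks 1 mouse, and 28 numbers have both tissues. Hspa1b was at 10.7 CPM in liver and 7.03 CPM in kidney for number 28 (PCE 6 mmol/kg), at 297 and 264 CPM for number 26 (PCE 2 mmol/kg) and at 345 and 176 CPM for number 6 (TCE 0.22 mmol/kg). These 3 numbers span most of the range, while number 21 stands off the line with 89.7 CPM in liver and 329 CPM in kidney. Over the 28 numbers, 7 of 10 members had a positive correlation with an adjusted p under 0.05 (two-sided permutation test, adjusted over 6774 genes), against 2.66% of those genes, whose median r was 0.08. The 7 members varied together within each tissue, so their calls are not separate observations.

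Dnajb1 correlated most closely, with Pearson's r = 0.90 (permutation p = 1e-05, the smallest the permutations can give, adjusted p = 0.00234) and Spearman's rho = 0.90 (permutation p = 1e-05). Without the 2 numbers farthest from the liver median r was 0.87, and 0.0148% of genes had a higher r over all 28. Hspa8 followed with r = 0.85 and rho = 0.86, Hspa1b with 0.82 and 0.78, Hsph1 with 0.79 and 0.77, Hspa1a with 0.78 and 0.75 and Bag3 with 0.71 and 0.70, with adjusted p of 0.00234 to 0.00598 (permutation test). Without the 2 farthest numbers these 5 were at 0.66 to 0.82. Hsp90aa1 had r = 0.58 and rho = 0.54 (permutation adjusted p = 0.0459), and 0.46 without the 2 farthest. Hspb1 (r = 0.49, rho = 0.43, permutation adjusted p = 0.133), Hspe1 (0.25 and 0.35, adjusted p = 0.615) and Hspd1 (−0.08 and −0.14, adjusted p = 0.91) did not pass. Without the 2 farthest numbers Hspb1 was at 0.44, Hspe1 at 0.54 and Hspd1 at 0.01.

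The permutations ran over all numbers without regard to treatment group, so their p-values also take in any group effect that both tissues share. The relations were also present inside the treatment groups, where no test was run. Of deviations from the group means, r was 0.89 for Dnajb1, 0.88 for Hspa1b, 0.84 for Hspa1a and 0.83 for Hsph1 and Hspa8. It was 0.66 for Hsp90aa1 and 0.60 for Bag3, against a median of 0.15 over all genes. Of the members that did not pass, Hspb1 was close to Bag3 at 0.58, Hspe1 was at 0.46 and Hspd1 at 0.01. The called members are thus not sharply set apart from Hspb1 and Hspe1. Within the 11 numbers with deep liver libraries (vehicle and 6 mmol/kg) Dnajb1 had r = 0.89 and Hspa1b 0.86, and within the other 17 they had 0.94 and 0.82. Hsp90aa1 was at 0.47 and 0.71 in these subsets, and Hspb1 at −0.11 and 0.73. Without the number whose kidney library held adrenal markers, the same 7 members were called, with r of 0.58 to 0.90; this alternative was chosen after seeing the data.

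**Figure D5:**
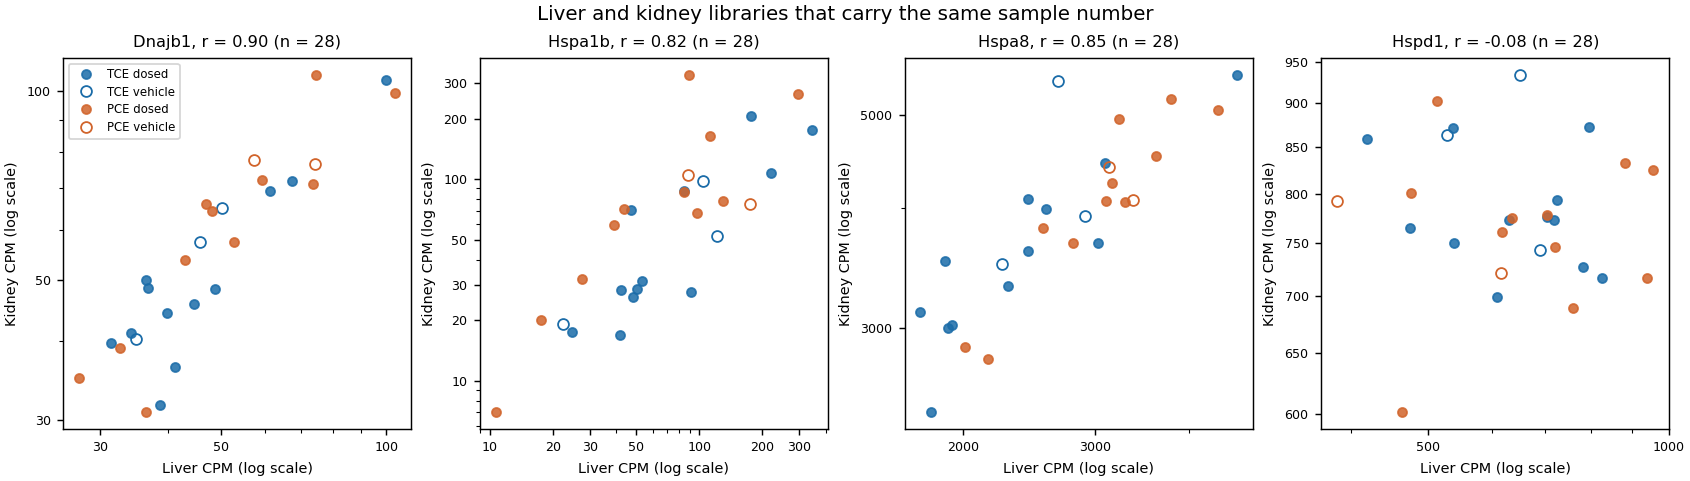
Kidney CPM (y axis) against liver CPM (x axis), both on log scales, for 28 sample numbers present in both tissues; filled points are dosed, open points vehicle. Dnajb1 (r = 0.90), Hspa1b (0.82) and Hspa8 (0.85) lie along a rising band that holds vehicle and dosed samples alike, while Hspd1 (−0.08) shows no band.

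Other genes of the chaperone network gave few calls at 6 mmol/kg. Of 16 further genes that HSF1 is known to co-induce, none of the 16 tested in kidney passed with either chemical. Of 3 heat shock factor genes, Hsf1 was lower in liver with PCE, at −0.57 ± 0.17 (adjusted p = 0.0464), and by −0.16 ± 0.04 per dose rank (adjusted p = 0.0138). Of 13 tested co-chaperones of Hsp70 and Hsp90, the nucleotide exchange factor gene Hspbp1 fell in liver with PCE (−0.57, adjusted p = 0.0279) and Bag2 rose in kidney with PCE (0.32, adjusted p = 0.0232). Of 8 subunits of the cytosolic chaperonin CCT, Cct4 rose with PCE in liver (0.39, adjusted p = 0.0464) and kidney (0.33, adjusted p = 0.0156). Of 10 mitochondrial chaperones and proteases, Grpel2, an exchange factor of mitochondrial Hsp70, rose in liver with PCE (1.03, adjusted p = 0.00817) and Hspa9, mitochondrial Hsp70 itself, in kidney with PCE (0.42, adjusted p = 0.00717). The other genes of the last 4 lists did not pass at 6 mmol/kg, and with TCE no gene of the 5 lists passed in either tissue. With PCE at that dose 5.84% of all genes were called in liver and 3.83% in kidney. The liver PCE trend, given above for Hsf1, called 12.6% of all genes. In it 1 co-chaperone rose and 2 fell, 1 CCT subunit rose, and of the mitochondrial list 2 rose and 2 fell.

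Chaperones of the endoplasmic reticulum fold secreted and membrane proteins. Of 13 tested, 2 fell with TCE and 1 with PCE in liver, 0 with TCE and 6 with PCE in kidney, and none rose. Over all genes edgeR called 1.31% and 5.84% in liver and 0.176% and 3.83% in kidney, so the single liver call with PCE is near the background. Calreticulin (Calr) fell in liver by 0.94 after TCE (adjusted p = 0.033) and 0.75 after PCE (adjusted p = 0.0448), and in kidney by 0.98 after PCE (adjusted p = 0.00525). The disulfide isomerase gene Pdia6 fell by 0.93 in liver with TCE and by 0.79 in kidney with PCE, and Pdia3 by 0.67 in kidney with PCE. The median of the list was −0.71 in kidney with PCE, against 0.03 over all genes.

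Immediate early genes and clock genes were also counted. Over all genes edgeR called 1.31% with TCE and 5.84% with PCE in liver, and 0.176% and 3.83% in kidney. Of 12 tested immediate early genes, which rise within minutes of a stimulus, Klf6 rose in liver with PCE (1.09, adjusted p = 0.0196) and no other passed in the 4 comparisons. That single call is near the background. Of 13 clock genes tested in liver, 2 rose and 3 fell with TCE, among them Npas2 (−2.11, adjusted p = 0.00122), Dbp (3.54, adjusted p = 0.00151) and Nr1d2 (2.07, adjusted p = 0.00699). With PCE Nr1d2 rose by 1.85 and Npas2 fell by 1.08, and of 14 tested in kidney none passed. Summed over the list, immediate early genes correlated with Hsph1 at −0.25 in liver and 0.21 in kidney, and clock genes at 0.14 and −0.08 (n = 29 each). Endoplasmic reticulum chaperones were at 0.38 in liver and 0.69 in kidney, co-chaperones at 0.16 and 0.64, and CCT subunits at 0.38 and 0.57. The mitochondrial list was at 0.23 and 0.06, and heat shock factors at −0.21 and 0.28.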

How the data were processed

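The deposited tables, 1 per tissue, hold read counts per RefSeq transcript as the authors deposited them, not normalized. The deposited 0.22 and 0.67 mmol/kg columns, which have a dose line with decimals, were treated like expected counts; all are whole and rounding altered none. Tools in the submitters' processing notes are TopHat2 2.0.10, CASAVA 1.8.2 and HTSeq, with build mm10, while annotation version, strand setting and time from dose to sampling are not given in the sources used here. Ambiguous reads, 19.68 to 22.55% of a library, and reads outside features, 14.29 to 27.53%, were left out. Of 33392 transcripts, 32988 were named by RefSeq accession and 278 by deposited symbol, 126 stayed unnamed, and counts were summed to 24122 genes. Positions, names and promoter sequences come from RefSeq tables of GRCm38.p6, which hold promoters of 8 of the 10 members, and coordinates are 1-based.

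edgeR 4.0.16 (R 4.3.3) fitted all 10 groups of a tissue (13174 liver and 14216 kidney genes after filterByExpr), each trend alone, and all 58 libraries together (14949 genes), with TMM and robust quasi-likelihood F tests, two-sided. Fits and the permutation test were tested on simulated data. Correlations used a pseudocount of 0.5 and genes with a mean of at least 5 CPM, with 100000 permutations for liver against kidney. Alternatives were DESeq2 1.42.0, its size factors in edgeR, no count filter, a replicate block, length and GC slopes, pooled vehicle groups, each chemical alone, Hspa1a and Hspa1b summed, and each library left out. Replicate pairs (56) all differed beyond sampling noise. Nothing in the labels ties replicates to separate animals, so the p-values cover only the spread among these libraries, which may be technical.

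Members and lists were chosen with earlier results of these data known. The naming rule takes every member, up to 3 called genes per list at 6 mmol/kg with the smallest adjusted p, and the 5 genes most like Hsph1 per tissue. A result of the co-induced gene list is not reported here.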

Additional observations from a re-analysis of the deposited data

How the results depend on the processing

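Among counts of called members, 316 of 323 alternatives over 16 results stayed within 1.5 times the reported count. DESeq2 called 1 member (Bag3) in place of 0 at the lower PCE doses in liver. Leaving out each library in turn gave 0 to 1 called members at 6 mmol/kg PCE in liver, 0 to 1 in the liver trends, 2 to 5 between kidney and liver in vehicle, and 0 in every other treatment comparison. Blocking on the running sample number across tissues gave 8 called members in place of 4 between kidney and liver in vehicle, adding Hspa1a (0.68, adjusted p = 0.0444), Hsph1 (0.64, 0.000632), Hsp90aa1 (0.74, 0.00074) and Dnajb1 (0.27, 0.024). The labels do not say what a number marks: over 28 numbers the correlation of deviations between tissues ran from −0.32 to 0.50 over genes with a median of 0.11, and 8 liver libraries were closest to their own number. Within a tissue, libraries of different groups with the same replicate number correlated at −0.80 to 0.70 in liver and −0.44 to 0.50 in kidney. Those with other replicate numbers had similar ranges, −0.88 to 0.84 and −0.51 to 0.47. The replicate block changed no count of called members. DESeq2's size factors, no count filter, the slopes, the pooled vehicle groups, each chemical alone and the summed Hsp70 pair changed none either. Of 4859 alternative values of single members, 4452 kept their direction and call, 10 gained and 8 lost a call, and 389 that were not called changed sign. Taking the most abundant transcript was not run, since each member has 1. With 2 to 3 libraries per group, intervals of Hspa1a and Hspa1b are wide enough to hide changes of several-fold.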
